A study of Homo sapiens with 2 samples.

Results

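The 14q32.31 cluster ends, on its telomeric side, in 9 miR hairpins, namely miR-154, miR-496, miR-377, miR-541, miR-409, miR-412, miR-369, miR-410 and miR-656 in genomic order. These hairpins were examined in small RNA libraries of K562, a leukemia cell line from a patient with chronic myelogenous leukemia that was grown without drug, and of K562/ADM, a resistant variant derived from it in increasing doses of adriamycin (ADM, an anthracycline) and then kept in 1000 ng/mL. Each cell line gave 1 library. The sources used here do not say whether K562/ADM is a single clone. Names were taken as members when their stem, without the asterisk, the arm and the copy number, was 1 of these 9, which held for 16 of the 934 mature miR names in the deposited table. The single library of each line leaves no replicate check, so the values compare these libraries and not the conditions, and the 95% intervals given with them cover counting error only.

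A miR hairpin is cut from a longer transcript by Drosha and then by Dicer, which leaves a duplex of a 5p and a 3p arm. One arm is usually kept as the guide strand of Argonaute, and bases 2 to 8 of that strand, the seed, choose the target mRNAs. The hairpins of 14q32.31 lie in the imprinted DLK1-DIO3 domain, where the non-coding transcripts that carry them are made from the maternal chromosome, and they are known best from brain, placenta and embryonic tissue.

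On GRCh37 all 9 hairpins lie on the plus strand of chromosome 14 within 7.05 kb, from the start of MIR154 (chr14:101526092-101526175) to the end of MIR656 (chr14:101533061-101533138). They fall inside introns of the lncRNA gene MEG9, and none overlaps an annotated exon. The hairpins are not evenly spaced. MIR409 (chr14:101531637-101531715), MIR412 (chr14:101531784-101531874), MIR369 (chr14:101531918-101532024) and MIR410 (chr14:101532249-101532328) share 0.692 kb, whereas MIR496 (chr14:101526910-101527011), MIR377 (chr14:101528343-101528476) and MIR541 (chr14:101530832-101530915) stand apart. A gap of 3.45 kb separates MIR154 from MIR323B, the nearest hairpin upstream.

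The mature sequences are shown because the seeds tell these neighbours apart. They were copied from RefSeq (GRCh38.p14), are written 5′ to 3′, and carry the seed in capitals. First come the arms that held over 100 reads in K562.

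miR-154 (5p arm): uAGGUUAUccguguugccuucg
miR-154* (3p arm): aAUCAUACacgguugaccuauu
miR-496: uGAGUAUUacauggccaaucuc
miR-377 (3p arm): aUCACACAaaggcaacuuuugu
miR-409-5p: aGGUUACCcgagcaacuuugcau
miR-409-3p: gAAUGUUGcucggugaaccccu
miR-369-3p: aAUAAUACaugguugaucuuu
miR-410 (3p arm): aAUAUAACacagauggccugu

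The rarer arms follow, of which mir-410* and mir-656* are taken as 5p arms from their asterisk alone.

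miR-377* (5p arm): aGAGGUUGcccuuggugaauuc
miR-541 (3p arm): uGGUGGGCacagaaucuggacu
miR-541* (5p arm): aAAGGAUUcugcugucggucccacu
miR-412 (3p arm): aCUUCACCugguccacuagccgu
miR-369-5p: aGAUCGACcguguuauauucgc
mir-410* (5p arm): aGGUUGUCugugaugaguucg
miR-656 (3p arm): aAUAUUAUacagucaaccucu
mir-656* (5p arm): aGGUUGCCugugagguguuca

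The 16 names have 16 different seeds. Every sequence matched GRCh37 at 1 place in the cluster, and no mature miR of another RefSeq gene came closer than 4 edits (substitutions, insertions or deletions). Members are therefore not near-identical copies of a miR elsewhere, although miR-369-3p and miR-154* are 4 edits apart. Some letters recur among them. Among the 17 mature sequences that RefSeq gives for these genes, 4 begin with AAU (miR-154*, miR-369-3p, miR-410 and miR-656), against 4 of the 52 other mature miRs of the 14q32.31 cluster and 1.73% of all 2370 human mature miRs in that table. The letters AGGUU occur in 5 of the 17, all of them 5p arms (of miR-154, miR-377, miR-409, miR-410 and miR-656), against 5 of the 52 others in the cluster and 2.49% of all.

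A shared stretch was also found at the end of the 5p arm. The letters UUCGCUUU, searched on the strand of the hairpin only, stand in 4 of the 8 member hairpins with a RefSeq sequence, in 9 of 37 hairpins of the whole cluster and in 0.641% of 1560 human hairpins. In the member hairpins the first 3 to 5 letters of this stretch are the last bases of the mature 5p arm, and the rest lie in the terminal loop. AAU, AGGUU and UUCGCUUU were the only letters counted, and their shares describe these sequences and are no test of enrichment. The UUCGCUUU stretch, in capitals, is shown with the bases that follow it, of which the last 3 or 4 open the 3p arm.

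MIR154: UUCGCUUUauuugugacgaauc
MIR377: UUCGCUUUauuuauguugaauc
MIR369: UUCGCUUUauugacuucgaaua
MIR410: UUCGCUUUuauuaaugacgaau

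The whole reads recovered from the deposited scaled values summed to 7677738 in K562 and 6895193 in K562/ADM over the 934 miR names, which is part of each library and not all reads sequenced. Both carried miRs of blood cells, with 351692 and 507475 reads of miR-142-3p and 30470 and 19738 of the erythroid miR-451. The 5 listed markers of other cell types (miR-122 of liver, miR-1 and miR-133a of muscle, miR-124 of neurons and miR-205 of epithelium) had at most 22 reads in either library. Other miRs known from such cells were present, among them miR-9 of neural cells with 7976 and 17882 reads, miR-145 of smooth muscle with 3045 and 6211, and miR-141 of epithelium with 893 and 743. These were looked up after the values were seen, and their part in the results was not tested. Levels were compared after scaling by the median of ratios, and a name was called lower when it was at least 2-fold lower in K562/ADM and its interval excluded 1.

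The distal miRs were almost lost from the K562/ADM library. Their 16 names had 2817 reads together in K562 and 29 in K562/ADM, where 2300 would have been counted at an equal level. After scaling, 1.26% of the K562 level remained (95% interval 0.843 to 1.81), which is 79.3-fold lower (55.1 to 119). The scaled ratio of 0.0126 became 0.0211 under upper-quartile scaling, the highest of the scalings tried. As a share of all miR reads, which needs no size factor, the group took 0.0367% in K562 (0.0353 to 0.0381) and 0.000421% in K562/ADM (0.000282 to 0.000604, Clopper-Pearson). All 16 names were lower in K562/ADM after scaling, and 13 of them met the call, or 81.2% of the members, against 15.6% of all 934 names.

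**Figure D1:**
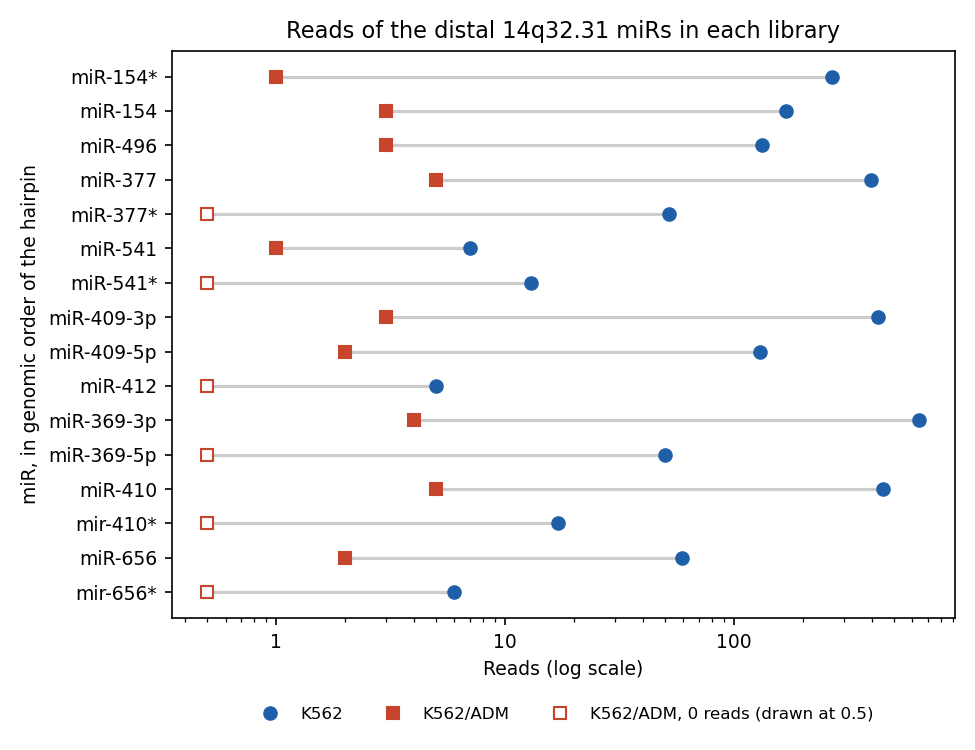
Reads of the 16 distal names in K562 (circles) and K562/ADM (squares) on a log axis, in genomic order of their hairpins, with 0 reads drawn as open squares at 0.5. No distal name had more than 5 reads in K562/ADM, while K562 had up to 642.

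A stricter limit depended more on the scaling. For 10 of the 16 names (62.5%) the whole interval lay below 10% of the K562 level, against 5.35% of all names in the table. Under upper-quartile scaling the count was 5 names. Over the 13 members with a combined count of at least 10 reads the median log2 ratio of K562/ADM to K562 was -5.52 with names without reads at a floor of 3 reads, and -6.85 with those names ranked lowest, beside -0.08 over all 604 names with that many reads. The members that passed this minimum all did so through K562, so this median is a description of them and no support for their fall. The members missing from it are miR-541, miR-412 and mir-656*, which are the same 3 that were not called.

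The miR-369 hairpin was the most abundant of the group in K562 and the one with the largest measured fall. Its 3p arm, which is known to pair with the AU-rich element of the TNF mRNA, was read 642 times in K562 but 4 times in K562/ADM. The level of miR-369-3p was 131-fold lower (50.9 to 482). In K562 it ranked only 160th among all names, so even the leading member was a modest part of the library. The other arm, miR-369-5p, was read 50 times in K562 and was without reads in K562/ADM. Against the floor of 3 reads it was 13.6-fold lower, with an interval that started at 10.7-fold.

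For miR-409, whose 3p arm has been studied as a repressor of angiogenin, both arms had reads in both libraries. MiR-409-3p went from 425 to 3 reads, 116-fold lower (39.3 to 563). MiR-409-5p went from 129 to 2 reads, 52.7-fold lower (14.3 to 440). The estimates of the arms differ, but each lies inside the interval of the other. MiR-412, between miR-409 and miR-369 on the chromosome, was barely present, with 5 reads from K562 and 0 from K562/ADM. It was not called, since with this scaling at least 7 reads in K562 are needed before 0 reads in K562/ADM give an interval that excludes 1.

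MiR-410 dropped from 447 reads to 5, 73.0-fold lower (31.1 to 226). The name mir-410* had 17 and 0 reads, 4.63-fold lower against the floor, with an interval that started at 3.37-fold. The last hairpin of the cluster, miR-656, was the weakest of the well-measured ones, with 59 reads against 2. MiR-656 was 24.1-fold lower (6.38 to 204). Its upper limit of 15.7% of the K562 level kept it out of the count below 10%. Mir-656* had 6 reads and 0, below the 7 needed for a call.

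MiR-154, the first hairpin of the group, and miR-541 are the hairpins whose arm with an asterisk had more reads in K562 than its partner arm. K562 gave 267 reads of miR-154* and K562/ADM a single one, which is 0.459% of the K562 level (0.0116 to 2.58), or 218-fold lower (38.8 to 8644). MiR-154 had 169 and 3 reads, 46.0-fold lower (15.5 to 225). The higher fold of miR-154* rests on 1 read, and its interval overlaps that of its partner. MiR-496 went down from 132 reads to 3. It was 35.9-fold lower (12.0 to 176) and had the smallest fold among the 8 names with at least 100 reads in K562.

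MiR-377, a miR studied in diabetic kidney, was read 397 times in K562 and 5 times in K562/ADM. That is 64.8-fold lower (27.6 to 201). MiR-377* had 52 and 0 reads, the most K562 reads of any distal name without a read in K562/ADM. It was 14.2-fold lower against the floor, with an interval that started at 11.1-fold. MiR-541 was rare on both arms. For its 3p arm, 7 reads against 1 gave a scaled ratio of 0.175, with an interval from 0.00388 to 1.36 that includes 1. MiR-541* had 13 and 0 reads, 3.54-fold lower against the floor. Its interval started at 2.49-fold, and it was called.

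**Figure D2:**
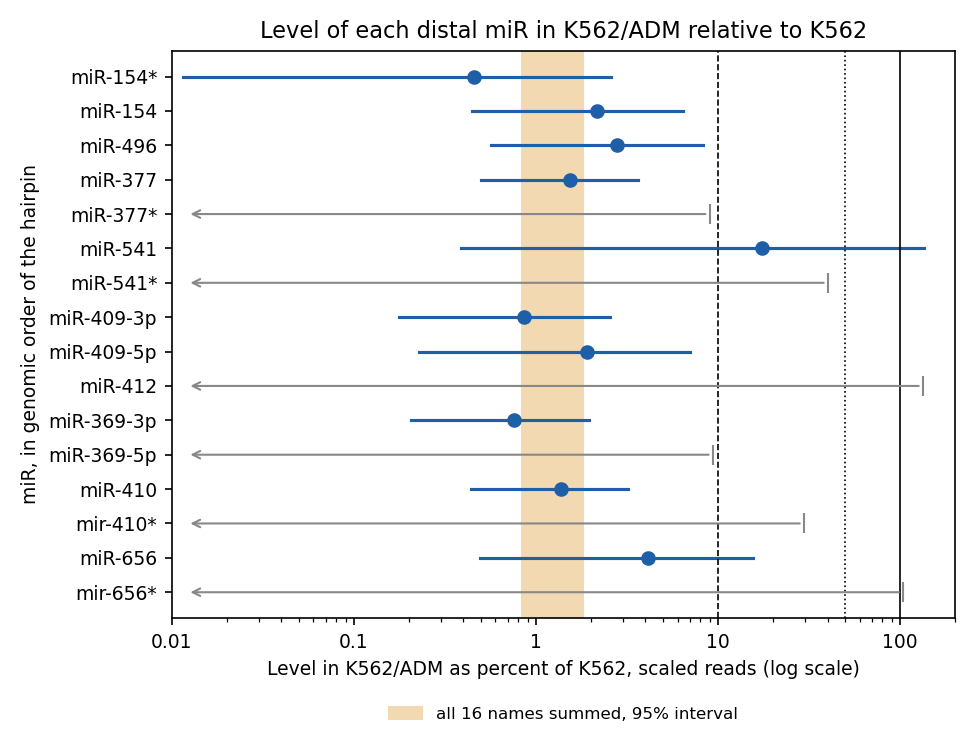
Scaled level of each distal name in K562/ADM as a percent of K562 (log axis), with points for the ratio and bars for the exact 95% interval. Arrows start at the upper limit of names with 0 reads in K562/ADM, the shaded band is the interval of all 16 names summed (0.843 to 1.81%), and the dashed, dotted and solid lines mark 10, 50 and 100%. Each bar or arrow covers 1.26%, the pooled value inside the band. The arrows have no lower limit above 0 and would cover any smaller value as well.

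The members could not be told apart by the size of their fall. The interval of each of the 16 names held the pooled 1.26%. With the arms of a hairpin summed, miR-369 stood at 0.708% of its K562 level (0.192 to 1.82), miR-409 at 1.11% (0.357 to 2.59), miR-154 at 1.12% (0.305 to 2.90), miR-410 at 1.32% (0.426 to 3.10), miR-377 at 1.36% (0.441 to 3.21), miR-496 at 2.78% (0.567 to 8.31), miR-656 at 3.77% (0.447 to 14.2) and miR-541 at 6.12% (0.148 to 38.3). Neighbours in this order overlap throughout. The order also runs broadly from abundant to rare hairpins, and the rarer ones have the wider intervals. When each hairpin was set against the other 8 by the exact odds ratio of their reads, 0 of 9 intervals excluded 1. The lowest odds ratio with reads in both libraries was that of miR-369 at 0.491 (0.124 to 1.43) and the highest that of miR-541 at 4.99 (0.116 to 33.5).

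No difference in the make-up of the group between the libraries was detectable beyond counting error. In K562, miR-369 supplied 24.6% of the distal reads (23.0 to 26.2), miR-409 19.7% (18.2 to 21.2), miR-410 16.5% (15.1 to 17.9), miR-377 15.9% (14.6 to 17.3) and miR-154 15.5% (14.2 to 16.9). In K562/ADM the 29 reads were spread over 8 hairpins, with 5 each for miR-377, miR-409 and miR-410, 4 each for miR-154 and miR-369, 3 for miR-496, 2 for miR-656 and 1 for miR-541. The share of miR-369 there was 13.8%, with an interval of 3.89 to 31.7 that holds its K562 share. A change in make-up smaller than these intervals was not detectable with so few reads.

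Arm use in K562 differed among the hairpins. The 3p arm supplied 96.3% of the miR-410 reads (94.2 to 97.9), 92.8% of miR-369 (90.6 to 94.6), 90.8% of miR-656 (81.0 to 96.5), 88.4% of miR-377 (85.1 to 91.2) and 76.7% of miR-409 (73.0 to 80.2). It was less dominant in miR-154, at 61.2% (56.5 to 65.8), and supplied 35.0% in miR-541 (15.4 to 59.2), from 20 reads. The intervals of miR-410 and miR-369 touch each other but not that of miR-409, and that of miR-154 lies below it. Over the 7 hairpins with both arms listed, 83.7% of the reads were from the 3p arm in K562 (82.3 to 85.1) and 80.8% in K562/ADM (60.6 to 93.4), which is 21 of 26 reads. The odds ratio of 3p to 5p reads between the libraries was 0.816 (0.297 to 2.79), and 0 of the 7 hairpins had an interval that excluded 1. A shift in arm use was not detectable at this depth.

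**Figure D3:**
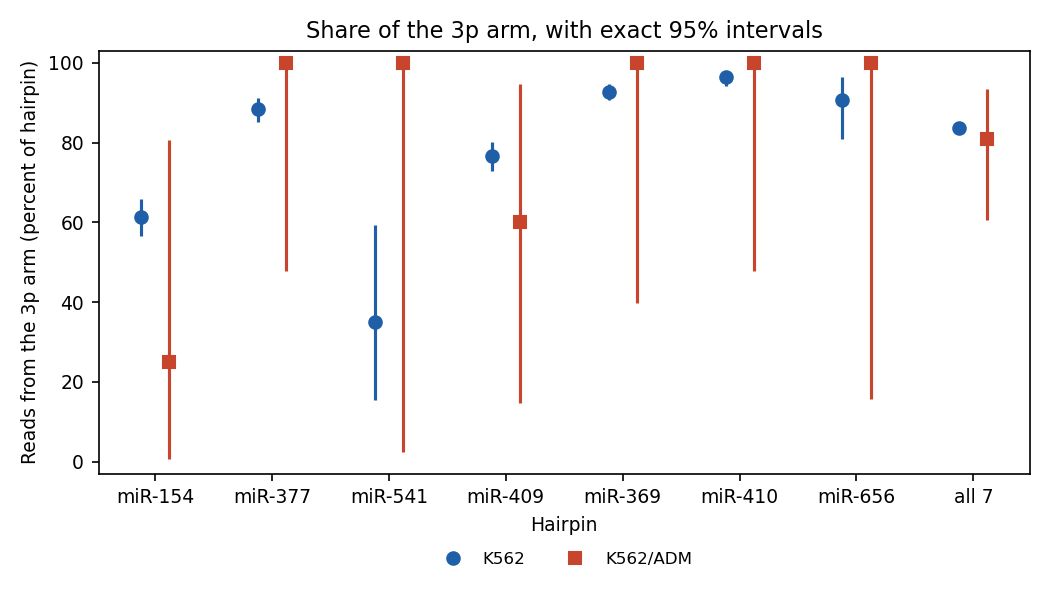
Share of the reads of each hairpin that came from the 3p arm (y axis, percent) in K562 (circles) and K562/ADM (squares), with exact 95% intervals as bars, and the 7 hairpins summed at the right. In K562 the share runs from 35.0% for miR-541 to 96.3% for miR-410, and the bars of K562/ADM, from 1 to 5 reads per hairpin, overlap those of K562.

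Some seeds of the group are also carried by other hairpins of 14q32, so the level of a seed can differ from that of its member. The seed of miR-154* (AUCAUAC) is shared with miR-487a, for which 374 reads were counted in K562 against 7. Together these names went from 641 to 8 reads, 65.4-fold lower (33.0 to 152). The seed of miR-541 (GGUGGGC) is shared with miR-654-5p, which had 218 and 5 reads and so supplied most of it. That seed was 30.6-fold lower (13.9 to 84.3), and its fall is measured through miR-654-5p rather than miR-541. The seed taken for mir-410* (GGUUGUC) is also that of miR-323b-5p, with 3 and 0 reads, and of the arm taken for mir-494*, with 17 and 0. Their sum of 37 reads in K562 against 0 was 10.1-fold lower against the floor, with an interval that started at 7.79-fold. The seeds of miR-377* and miR-412 recur in miR-6086 and miR-6754-3p, which are not among the 934 names, and the other 11 seeds in no further human miR of the RefSeq table.

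The distal end was then compared with the 5 blocks of hairpins that precede it in the cluster, numbered from the centromeric side. The lead of each block in K562 was miR-411 in block 1 (10915 reads, against 131 in K562/ADM), miR-494 in block 2 (394 and 1), miR-376c in block 3 (6583 and 83), miR-381 in block 4 (149839 and 1252) and miR-134 in block 5 (14608 and 464). Of the 57 names in these blocks 48 were called lower and 28 had a whole interval below 10%. The distal end was thinner than 4 of the 5 blocks, since its 2817 reads stand against 31239, 755, 18295, 153238 and 16861 in blocks 1 to 5.

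The level that remained in K562/ADM was 1.51% in block 1 (1.36 to 1.67), 0.649% in block 2 (0.176 to 1.67), 1.86% in block 3 (1.65 to 2.09), 1.06% in block 4 (1.01 to 1.12) and 3.71% in block 5 (3.39 to 4.05), beside 1.26% at the distal end. With all names summed, the difference was largest from block 5, the nearest one upstream. This block holds miR-487a, miR-382, miR-134, miR-668, miR-485 and miR-323b, and its hairpins were not alike. MiR-485 stood at 1.13% (0.514 to 2.15), near the distal value. MiR-487a, miR-134, miR-382 and miR-323b stood at 2.75, 3.89, 3.95 and 6.68%. The odds that a read came from K562/ADM were 0.340 times as high at the distal end as in block 5 (95% interval 0.225 to 0.495, or 0.196 to 0.549 at the 99% level that allows for 5 comparisons). MiR-134 holds 86.6% of the block 5 reads in K562. Without the most abundant name of each block, miR-134 and miR-369-3p among them, the odds ratio was 0.551 (0.324 to 0.917), and its 99% interval of 0.274 to 1.06 held 1.

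Against the other blocks, with all names summed, the distal end did not differ beyond counting error after allowance for 5 comparisons. The odds ratio was 0.835 for block 1 (0.551 to 1.22), 1.94 for block 2 (0.679 to 7.63), 0.677 for block 3 (0.444 to 0.997, and 0.387 to 1.11 at 99%) and 1.19 for block 4 (0.789 to 1.71). The value for block 4 rests on miR-381, which holds 97.8% of its reads. Without the most abundant name of each block the odds ratio for block 4 was 0.495 (0.301 to 0.787), on the other side of 1, with a 99% interval of 0.257 to 0.897. That value rests in part on 1 other name. Of the 79 reads then left to block 4 in K562/ADM, 29 were of miR-1185, which had 385 reads in K562 and kept 9.22% of that level. The odds ratio without miR-1185 was not computed. With the same names left out the interval for block 5 was 0.324 to 0.917. The intervals of blocks 4 and 5 overlap, so their distances from the distal end could not be ranked. These intervals treat reads as independent and leave out the noise between libraries, which could not be estimated from 1 library of each.

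**Figure D4:**
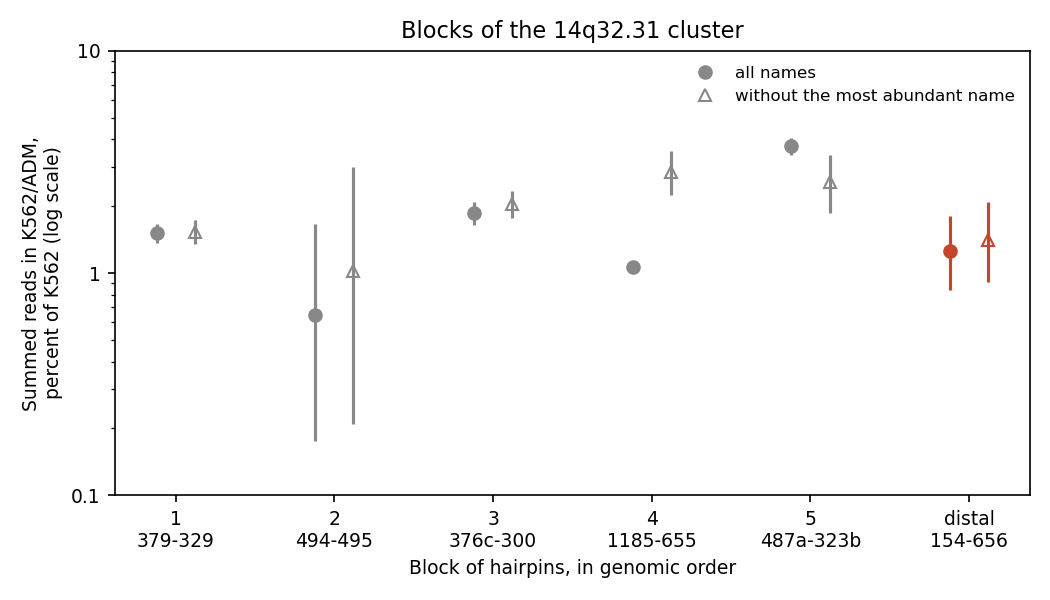
Summed scaled reads in K562/ADM as a percent of K562 (y axis, log scale) for the 5 preceding blocks (grey) and the distal end (red), with exact 95% intervals, over all names (filled circles) and without the most abundant name of each block (open triangles). The distal end lies at 1.26% and at 1.41% without miR-369-3p, and block 5 at 3.71% and 2.55%.

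Along the chromosome the distal hairpins continued the low levels of the cluster. Of the 26 hairpins with a position and a combined count of at least 100 reads, which include 6 of the distal end, the remaining level ran from 0.298% for miR-494 to 9.08% for miR-1185. The 6 distal hairpins lay between 0.708% and 2.78%, inside that range. They passed the minimum through their K562 reads. Below it were miR-656 at 3.77% (0.447 to 14.2), miR-541 at 6.12% (0.148 to 38.3) and miR-412, with 0 reads in K562/ADM.

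**Figure D5:**
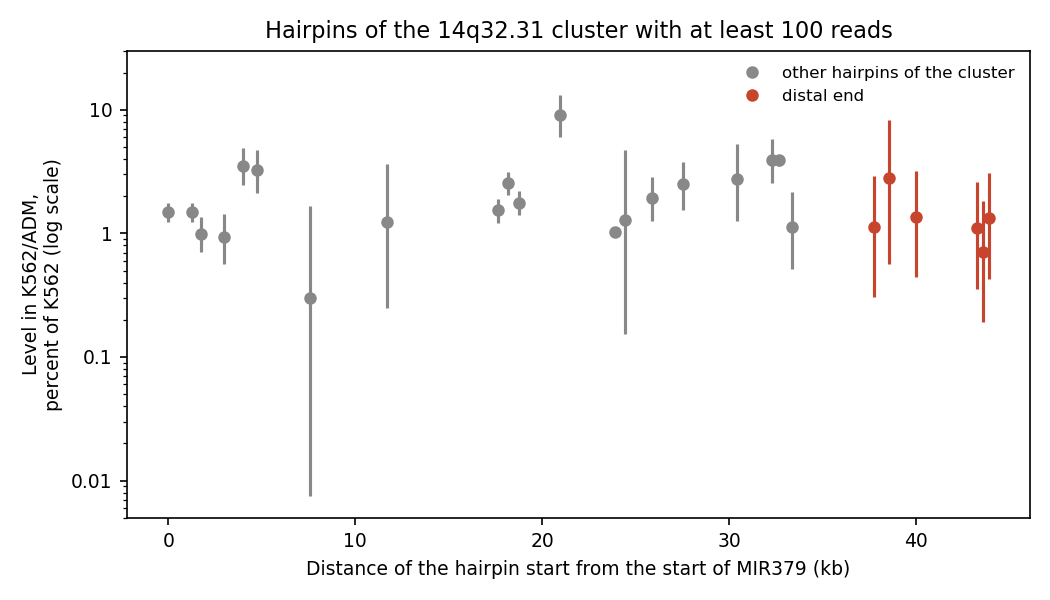
Level of each hairpin in K562/ADM as a percent of K562 (y axis, log scale) against the distance of its start from that of MIR379 (x axis, kb), with exact 95% intervals. Drawn are the 26 hairpins with a position and at least 100 reads. MiR-376b, with 1837 and 26 reads, had no position and is not drawn. The 6 hairpins of the distal end (red) lie between 0.708% and 2.78%, within the range of the other hairpins (grey). They reach the minimum through their K562 reads, and miR-541, miR-412 and miR-656 fall short of it.

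Outside the imprinted domain no name with at least 50 reads fell as far. The nearest to the distal end in ratio were miR-92a-1* of the miR-17-92 hairpins, with 1266 and 148 reads (6.99-fold lower, 5.89 to 8.34), mir-1303* with 80 and 10 (6.53-fold lower, 3.37 to 14.1) and miR-1275 with 484 and 62 (6.37-fold lower, 4.89 to 8.44). Each of these kept over 14% of its K562 level, above the 1.81% that bounds the distal names together. Rarer names were left out by the minimum. Among them let-7e*, with 33 and 2 reads, was 13.5-fold lower (3.45 to 116). Mir-25*, with 17 and 1, was 13.9-fold lower (2.18 to 580).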

How the data were processed

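Small RNA of K562 and K562/ADM was sequenced on an Illumina Genome Analyzer IIx, 1 library each. The authors grouped reads into unique sequences, dropped those seen once, trimmed adapters and used Bowtie within miRanalyzer to match what was left against miRBase 16. CASAVA 1.7.0, DESeq and hg18 are named in the submitters' processing notes. The deposited values are a signal, the read count divided by the DESeq size factor of the library. Columns of the authors' fold changes and p-values were not used.

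Each column was divided by its smallest value above 0. All values (100%) came out whole within 0.001. Dropping sequences seen once can remove reads from rare names, and its effect was not tested. It would weigh most on K562/ADM, where no distal name had more than 5 reads, and there it would enlarge the fall. Names with 1 recovered read were still present, miR-154* and miR-541 in K562/ADM among them. How far the dropping acted on the deposited values is therefore not known. The median of ratios over names with reads in both libraries gave the size factors. Ratios, shares and odds ratios have exact 95% intervals (Clopper-Pearson, or conditional for odds ratios). With 1 library per line no count model with replicates could be fitted. Names with 0 reads in K562/ADM were set against a floor of 3 reads there. Older names were assigned to arms by hand. All members were named, with miRs sharing a seed, the most abundant name of each block and the 3 names outside 14q32 with the nearest ratio and at least 50 reads. The members and lists were chosen with earlier results of these data known. Positions are from GENCODE on GRCh37, and sequences from RefSeq (GRCh38.p14), in which all 16 names were matched. Intervals and calls were tested on counts simulated with Poisson noise only. That simulation holds no noise between libraries, so it cannot show how the calls fare under such noise. The read sums over miR names are not the sequencing depth, so scaling by the totals the study gives was added as an alternative. Alternatives were other scalings, read minimums, call rules and groupings of names. Python 3.11.15, scipy 1.17.1, pandas 2.3.3 and edgeR 4.0.16 (TMM and upper-quartile factors) were used.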

Additional observations from a re-analysis of the deposited data

How the results depend on the processing

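The pooled ratio of the distal names stayed below 10% of K562 and called under the 6 other scalings and without miR-369-3p or names with an asterisk, and the count of 13 called names kept within 1.5 times under each alternative. Under upper-quartile scaling every log2 ratio was 0.74 higher, and 5 in place of 10 names were wholly below 10%. The median log2 ratio of -5.52 was -5.66 under total-count scaling, -5.52 under TMM, -4.78 under upper-quartile scaling, -5.63 under median-of-ratios scaling without 14q32 names and -5.64 under scaling by miR-425. It was -4.88 over all names with a read, -5.72 with at least 50 reads, -5.53 with 1 added to the scaled values, -6.10 for the more abundant arm of each hairpin and -6.22 with arms summed. Mir-656* became called under total-count scaling, scaling by miR-425 and scaling without 14q32 names. Scaling by the totals of all reads sequenced, chosen after seeing the data, gave a pooled ratio of 0.00899 and a median log2 ratio of -6.01. All 16 names were then called, miR-541, miR-412 and mir-656* among them.

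The comparisons between blocks depend more on the names summed. Against block 3 the odds ratio of 0.677 became 0.690 without the most abundant names and 0.783 without names with an asterisk, with intervals that hold 1, and against block 4 it went from 1.19 to 0.495 without the most abundant names. Taken from the median log2 ratios in place of summed reads, the distal level relative to blocks 1 to 5 was 1.24, 0.136, 0.932, 0.604 and 0.728, with no test. The value for block 2 is set by the floor, since 3 of its 5 names with at least 10 reads had 0 reads in K562/ADM, and it says nothing about the level there. For blocks 1 and 4 the sides were exchanged. The floor enters these medians too, for 4 of 13 distal names, 2 of 15 in block 1 and 3 of 9 in block 4. With names without reads ranked lowest the distal median was -6.85 in place of -5.52. The cause of the exchange was not tested. Leaving out mir-410* and mir-656* leaves 1 arm of those hairpins and gives no arm share. No paired analysis was possible because there is 1 library per cell line. The 29 reads in K562/ADM limit every comparison among the members.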
